A study of Mus musculus with 28 samples.

Results

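Kidneys of control db/m mice were compared between 35 and 26 weeks of age. The comparison holds 6 libraries of 35 weeks and 5 of 26 weeks, 11 of the 28 libraries of the series, and takes in 13495 of 14845 genes, those whose value reached 1 in 5 or more of the 28 libraries. The db/m animals carry 1 mutated and 1 intact copy of the leptin receptor gene Lepr, are lean and not diabetic, and here were male, with both kidneys left in place (intact) and no other treatment in the labels. The other 17 libraries came from male db/db mice with 1 kidney removed (Unx), which lack the long leptin receptor and are obese and diabetic, 12 at 26 weeks and 5 at 35 weeks. The series was set up to describe diabetic kidney disease in the db/db Unx animals, and the db/m groups are its controls. The labels do not give the strain background, the hour at which kidneys were taken, or a library or sequencing batch, so age, batch and hour cannot be told apart.

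Values are the deposited, scaled read values of each gene. Means are given with the SD over libraries, changes are differences of log2(value + 1) between 35 and 26 weeks with their standard errors, and q is limma's p-value adjusted over the 13495 genes. A gene was called at q below 0.05. Estimated depth was 24.6 ± 2.13 M (mega) counts at 26 weeks (n = 5) and 25.01 ± 3.29 M at 35 weeks (n = 6), between 21.8 and 29.7 M per library. Between libraries, Pearson correlations of log2 values over all genes (genes are not independent) were 0.9795 to 0.9891 within the ages and 0.9761 to 0.9872 between them. On the first principal component of the 11 libraries, with 20.7% of the variance, the 26-week libraries lay between -20.2 and -6.12 and the 35-week libraries between -0.787 and 23.2. On the second, with 12.5%, replicate 4 of 26 weeks lay at -29.1 and the others between -11.7 and 13.1. Of these 11 libraries, 3 stood apart in named genes: replicate 4 of 26 weeks in antigen presentation genes, replicate 5 of 35 weeks in clock genes and replicate 4 of 35 weeks in urothelial genes, each with its values below.

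Kidney RNA of adult mice is mostly that of proximal tubule cells, which burn fatty acids and are rich in mitochondria. Many kidney genes also follow the circadian clock, in which the activators BMAL1 (gene Arntl) and CLOCK or NPAS2 drive Per, Cry, Nr1d and Dbp genes through E-box sequences, and the PER, CRY and REV-ERB (Nr1d) proteins in turn restrain the activators. DBP and its relatives act on D-box sequences, where NFIL3 represses. Arntl and Dbp therefore peak at opposite hours of the day.

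Between 26 and 35 weeks, 999 genes were called (7.4% of those tested), 368 higher (2.73%) and 631 lower (4.68%) at 35 weeks. With the libraries scaled to equal medians instead, the split was 253 higher and 800 lower. Changes were small: the median size was 0.42 on the log2 scale among higher calls and 0.30 among lower calls, and 13 genes (0.0963%) passed a 2-fold change, 10 of them upward and 3 downward. The values of the ages did not overlap for 673 genes (4.99%), 202 higher (1.5%) and 471 lower (3.49%). Clock genes, transporters, lipid enzymes, the cell cycle inhibitor Cdkn1a and renin were among the named changes, and genes for ribosomal proteins and the respiratory chain were lower. With single libraries left out the count was lowest without replicate 5 of 26 weeks (578), and it was 475 without replicate 4 of both ages and 332 after centring by transcript length, described below. Whether each library is a separate animal is not in the labels, and p-values measure only the spread between these libraries.

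Lepr itself (ENSMUSG00000057722, GRCm38 chromosome 4, 101717404 to 101815352) was near the lower limit of detection. Its 26-week values were 0.703, 0.65, 0.52, 0.293 and 0.247, and the 35-week values ran from 0.799 over a median of 1.9 to 4.7. All 35-week libraries were above all 26-week libraries. The change was 1.02 ± 0.24 (q = 0.00654), against -0.10 in db/db Unx, and it was not called without replicate 4 of both ages (0.78, q = 0.0715). A value per gene does not separate the long and short receptor forms and does not show the db mutation.

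Of the 20 clock genes listed, 4 were called lower at 35 weeks (Dbp, Ciart, Per3, Usp2) and 2 higher (Arntl, Npas2), beside the 7.4% called over all genes. The median change of the list was -0.20, against 0.01 over all genes tested. Those that fell encode outputs and repressors of the clock, and those that rose encode BMAL1 and the CLOCK relative NPAS2. The plot of clock genes by age shows each library. The sequences before the start sites of Ciart, Per3, Dbp and Arntl are printed, 4 of the 6 called genes. They show which of these 4 carry the textbook clock motifs close to the start. They are 250 bases from RefSeq on GRCm38.p6, read 5′ to 3′ on the gene's strand and ending at the base before the start site, with capitals for motif matches. Ciart lies on the minus strand (chr3:95882229-95882478), Per3 on the minus strand (chr4:151044666-151044915), Dbp on the plus strand (chr7:45704997-45705246) and Arntl on the plus strand (chr7:113207215-113207464, the first of its 2 RefSeq entries).
Ciart: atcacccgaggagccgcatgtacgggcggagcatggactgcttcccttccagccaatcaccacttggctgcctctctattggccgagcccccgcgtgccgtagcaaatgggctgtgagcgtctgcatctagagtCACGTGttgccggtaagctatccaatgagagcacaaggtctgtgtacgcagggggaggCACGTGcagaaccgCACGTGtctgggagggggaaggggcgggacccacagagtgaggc
Per3: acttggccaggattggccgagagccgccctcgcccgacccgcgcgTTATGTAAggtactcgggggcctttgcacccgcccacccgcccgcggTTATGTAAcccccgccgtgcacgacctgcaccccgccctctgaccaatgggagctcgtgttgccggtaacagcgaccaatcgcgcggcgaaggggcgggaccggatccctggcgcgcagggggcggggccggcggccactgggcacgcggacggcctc
Dbp: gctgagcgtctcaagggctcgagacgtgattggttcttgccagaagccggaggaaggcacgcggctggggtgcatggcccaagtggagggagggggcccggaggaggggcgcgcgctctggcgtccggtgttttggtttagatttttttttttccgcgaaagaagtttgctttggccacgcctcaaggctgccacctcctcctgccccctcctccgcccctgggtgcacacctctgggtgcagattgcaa
Arntl: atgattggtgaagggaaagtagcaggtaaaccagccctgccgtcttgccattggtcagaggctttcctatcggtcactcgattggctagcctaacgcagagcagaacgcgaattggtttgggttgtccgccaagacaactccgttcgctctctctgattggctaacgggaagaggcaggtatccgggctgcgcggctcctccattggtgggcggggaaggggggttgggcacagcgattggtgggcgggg

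The Ciart window held 3 copies of the E-box CACGTG, from -116 to -111, -58 to -53 and -44 to -39 counted from the start site. The Per3 window held 2 copies of the D-box form TTATGTAA, from -205 to -198 and -158 to -151. CACGTG, TTANNTAA and the Nr1d and Ror half-site AGGTCA were searched on both strands. The Dbp, Arntl, Usp2 and Npas2 windows held none of the 3. Usp2 and Npas2 are not printed, although the change of Npas2 was larger than that of Per3. Over 32817 RefSeq promoter windows of this length, 6.02% held CACGTG, 5.43% held TTANNTAA and 14.0% held AGGTCA. Most of the Dbp window and the end of the Ciart window lie inside the coordinates given below for these genes. A match describes the letters only, and elements outside the window were not looked at.

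Dbp (ENSMUSG00000059824, chromosome 7, 45705088 to 45710203) encodes the D-box activator that is a classical output of the clock. Its 26-week values were 146, 146, 133, 82.2 and 191, and the 35-week values ran from 15.0 over a median of 54.3 to 75.6. The ages did not overlap, and replicate 5 of 35 weeks was lowest of all libraries. The change was -1.54 ± 0.28 (q = 0.00114), from -1.72 to -1.23 when single libraries were left out, and -0.95 (q = 0.0129) in db/db Unx. With the spread taken from the 11 db/m libraries alone, Dbp was not called (q = 0.0599). Of the other called genes named by rule, Tmem237, Lars2, Gapdh, Fth1, Hk1, Magi2, Trpv5, Slc12a1, Ptger3 and Ren1 also lost their calls in that fit (q from 0.0553 to 0.224). Ciart (ENSMUSG00000038550, chromosome 3, 95878503 to 95882251), a repressor of CLOCK and BMAL1, had values of 20.1, 17.9, 15.0, 7.04 and 26.4 at 26 weeks and of 1.89 over 3.51 to 9.36 at 35 weeks. Only replicate 4 of 26 weeks fell within the 35-week range. The change was -1.69 ± 0.35 (q = 0.00314) and stayed called in every fit that left out 1 library. In db/db Unx it was -0.06, and the difference of -1.64 between the genotypes was not called (q = 0.0952).

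Per3, a period gene, was at 29.9, 24.3, 28.4, 18.3 and 31.7 at 26 weeks and from 12.4 over 16.3 to 23.7 at 35 weeks. Its change of -0.63 ± 0.18 (q = 0.0221) lay beside -0.61 in db/db Unx, and was not called without any 1 of replicates 1, 3 and 5 of 26 weeks or 3 and 5 of 35 weeks (q from 0.0507 to 0.0801). Usp2, a clock-driven ubiquitin protease, fell by 0.54 ± 0.14 on the log2 scale (q = 0.0159), with 215, 175, 174, 187 and 167 at 26 weeks and 103 over 119.9 to 170.4 at 35 weeks, so that the 35-week maximum reached just past the 26-week minimum. Usp2 was not called without replicate 4 of both ages (q = 0.0676). Arntl (ENSMUSG00000055116, chromosome 7, 113207465 to 113314126) moved the opposite way. Its values were 1.05, 1.95, 3.46, 3.73 and 1.61 at 26 weeks and ran from 4.70 over 7.57 to 16.1 at 35 weeks, with no overlap. The change was 1.48 ± 0.34 (q = 0.00664), from 1.29 to 1.62 without single libraries, and 0.79 (q = 0.0873) in db/db Unx. Npas2, which can take the place of CLOCK, had 3.47, 4.98, 1.39, 4.23 and 0.165 at 26 weeks and 3.90 over 7.27 to 12.6 at 35 weeks. Its change of 1.27 ± 0.35 (q = 0.0217) was not called without replicate 3 of 26 weeks (q = 0.0587), replicate 5 of 26 weeks (q = 0.0981) or replicate 3 of 35 weeks (q = 0.051), nor with the spread of the 11 db/m libraries alone (q = 0.106).

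**Figure D1:**
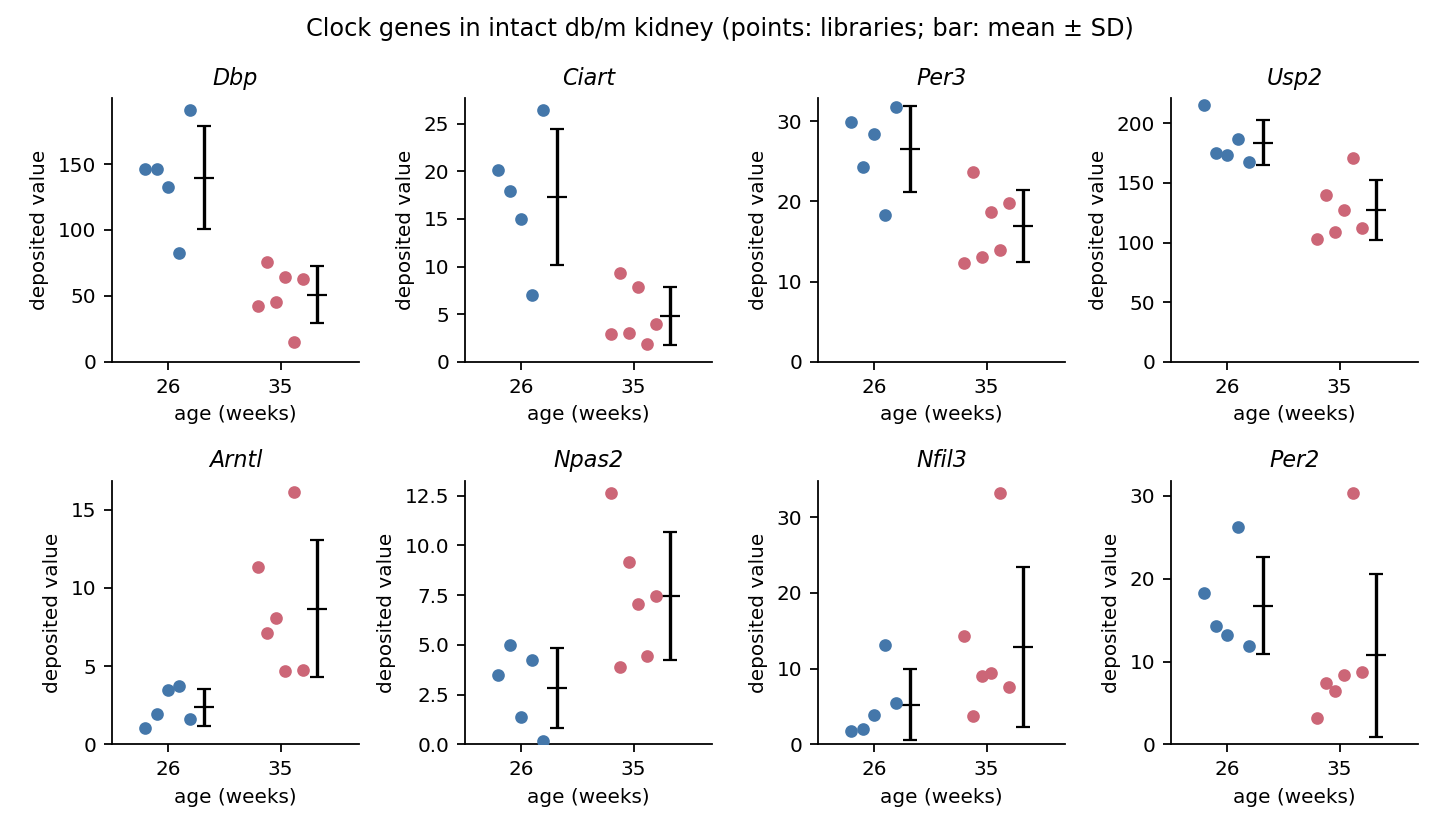
Deposited value (y axis) of 8 clock genes in each db/m library at 26 and 35 weeks (x axis), with points for libraries and the mean ± SD. Dbp at 35 weeks lies between 15.0 and 75.6 and does not reach the 26-week range, and Arntl is the reverse, with 4.70 to 16.1 at 35 weeks above all 26-week libraries.

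The other 14 clock genes were not called. Nfil3, the D-box repressor, had 1.71, 1.99, 3.88, 13.1 and 5.49 at 26 weeks and 3.77 over 9.20 to 33.2 at 35 weeks (change 1.15 ± 0.39, q = 0.0767). Per2 had 18.3, 14.2, 13.2, 26.2 and 11.8, and 3.13 over 7.94 to 30.4 (change -0.84, q = 0.197). Nr1d1 had a 35-week median of 89.8, but 3.02 in 1 library. That library, replicate 5 of 35 weeks, had the lowest Dbp and Nr1d1 and the highest Per2, Nfil3, Cry1 (21.7) and Arntl of its age. Without it Per2 was called (-1.19, q = 0.0259) and Nr1d1 was at 0.48 (q = 0.133). At 26 weeks replicate 4 had the lowest Dbp, Ciart, Per3 and Nr1d1 (36.9), the highest Per2 and the highest Nfil3. The core genes Clock (-0.07), Per1 (-0.01), Rora (0.12) and Bhlhe40 (-0.22) had these log2 changes, none called, and Tef, a relative of Dbp, was at -0.23 (q = 0.131). In the test of the difference between the genotypes none of the 20 clock genes was called.

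Among the named genes with the largest increases were a cytochrome P450, genes of lipid handling and a cell cycle inhibitor. Cyp2d12 (ENSMUSG00000096852, chromosome 15, 82555072 to 82560403), a cytochrome P450 of the Cyp2d group, had 113, 83.3, 187, 203 and 162 at 26 weeks and 247 over 319 to 342 at 35 weeks. The ages did not overlap, and the change was 1.09 ± 0.25 (q = 0.00768), against -0.01 in db/db Unx. Cyp2d genes are near-identical in places, and how reads were split among them is uncertain. Ndrg1 (ENSMUSG00000005125, chromosome 15, 66929318 to 66969640), a hypoxia- and stress-responsive gene, had 1397, 1222, 1462, 1493 and 1266 at 26 weeks and 2020.1 over 2537 to 2984 at 35 weeks. The lowest 35-week library was above the highest 26-week library, and the change was 0.88 ± 0.12 (q = 0.000131). Cdkn1a (ENSMUSG00000023067, chromosome 17, 29090976 to 29100727), which encodes the cell cycle inhibitor p21, had 4.35, 3.64, 2.98, 6.37 and 3.26 at 26 weeks and 7.97 over 9.41 to 10.9 at 35 weeks. It too did not overlap between ages, with a change of 1.05 ± 0.17 (q = 0.000263) and of 0.65 (q = 0.00414) in db/db Unx. Of the 16 p53 and senescence genes tested Cdkn1a was the called one, beside 7.4% over all genes. The list's median change was 0.15.

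Ipmk, an inositol phosphate kinase, rose in every 35-week library, from 59.1, 64.1, 62.6, 49.9 and 71.7 to 93.4 over 100.2 to 120.3 (change 0.73 ± 0.10, q = 0.000114). Abca1, the exporter of cellular cholesterol, had 26.4, 26.1, 21.1, 16.6 and 19.2 at 26 weeks and 32.6 over 36.3 to 43.3 at 35 weeks (0.74 ± 0.15, q = 0.00218). The ages overlapped for neither gene. Fga, the fibrinogen alpha chain, rose from 15.7 ± 3.17 to 30.3 ± 7.72 (0.89 ± 0.21, q = 0.00917), and Acnat2, a peroxisomal acyltransferase, from 54.7 ± 9.13 to 101 ± 26.8 (0.85 ± 0.15, q = 0.000691). Slc16a1, the lactate and pyruvate carrier MCT1, went from 36.2 ± 8.23 to 63.8 ± 19.3 (0.78 ± 0.21, q = 0.0225), and was not called without replicate 2 or 5 of 26 weeks (q of 0.0689 to 0.0785). Cluh, which binds mRNAs of mitochondrial proteins, rose by a smaller but evenly spread 0.48 ± 0.07 (q = 0.000131), and Ptprk, a receptor tyrosine phosphatase, by 0.44 ± 0.07 (q = 0.000316).

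Fasn, the fatty acid synthase, rose (0.51 ± 0.13, q = 0.0135), and Sc5d, a late enzyme of sterol synthesis, fell (-0.34 ± 0.10, q = 0.0312). Fasn was not called without replicate 3 of 26 weeks (q = 0.0538), and Sc5d lost its call without any 1 of 6 libraries, replicates 1, 2, 3 and 5 of 26 weeks and 3 and 5 of 35 weeks (q from 0.0522 to 0.1). None of the 29 genes of fatty acid oxidation was called, beside 7.4% over all genes, and 15 of the 29 had a negative change.

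Among called genes whose mean reached 19.7 in the age with the higher level, with predicted genes and Rik clones left out, the largest decrease outside the clock was that of Slc51a (ENSMUSG00000035699, chromosome 16, 32474504 to 32487879), 1 chain of the basolateral bile acid and steroid carrier. Its values were 142, 113, 116, 168 and 124 at 26 weeks and 62.7 over 70.6 to 105 at 35 weeks, with no overlap and a change of -0.79 ± 0.12 (q = 0.000266). Nat8f6 (ENSMUSG00000079495, chromosome 6, 85808024 to 85820954) and Nat8f7, N-acetyltransferase family genes that lie in 1 cluster on chromosome 6, fell by 0.74 ± 0.16 (q = 0.00434) and 0.71 ± 0.15 (q = 0.00273) on the log2 scale. Nat8f6 had 236, 214, 202, 220.0 and 218 at 26 weeks and 97.3 over 123 to 209 at 35 weeks. Its highest 35-week library reached into the 26-week range and the other 5 lay below it. Exons of Nat8f6 overlap those of Nat8f5 on the same strand, and reads of this family may be split among its members. Coq10b, which helps the electron carrier ubiquinone to function, fell from 46.0 ± 3.74 to 30.3 ± 6.70 (-0.61 ± 0.12, q = 0.001). Vwa1, an extracellular matrix protein, was at -0.62 ± 0.15 (q = 0.0113), not called without replicate 4 of both ages (q = 0.0989). Lars2, the mitochondrial leucyl-tRNA synthetase, was at -0.58 ± 0.14 (q = 0.00989; q = 0.0676 without those 2 libraries). Its values were high, 2439 to 4037 at 26 weeks and 1554 to 2910 at 35 weeks, where Gapdh had 276 to 304 at 26 weeks. Whether all these reads come from Lars2 mRNA was not tested. Tmem237, a cilium transition zone protein, was at -0.58 ± 0.15 (q = 0.0161), and lost its call without replicate 1, 4 or 5 of 26 weeks (q from 0.0506 to 0.0706). The smallest q of all was that of Myl6 (ENSMUSG00000090841, chromosome 10, 128490860 to 128494145), a non-muscle myosin light chain. Myl6 had 438, 453, 455, 513 and 505 at 26 weeks and 340.3 over 356 to 396 at 35 weeks, with no overlap and a change of -0.37 ± 0.05 (q = 0.0001). Of the 67 called genes named by rule, 18 have an exon that overlaps a gene on the opposite strand, among them Dbp with Sphk2, Slc51a with Pcyt1a and Ndufa13 with Tssk6, and the library kit does not mark strand, so the reads of such pairs cannot be told apart.

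**Figure D2:**
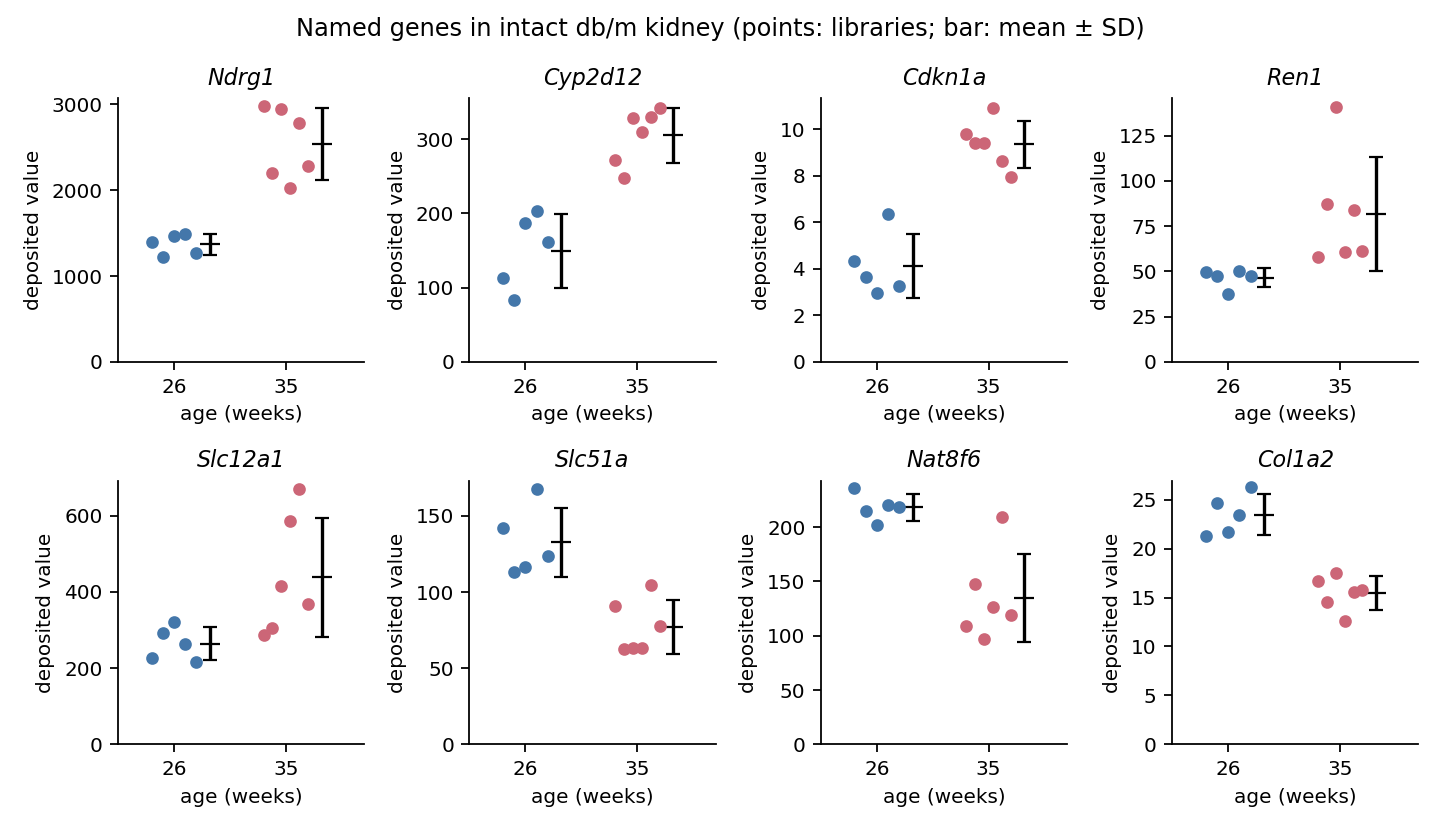
Deposited value (y axis) of 8 genes in each db/m library at 26 and 35 weeks (x axis), points for libraries and mean ± SD. Ndrg1, Cyp2d12 and Cdkn1a are higher in every 35-week library, Slc51a and Col1a2 are lower in every one, and 1 of 6 35-week libraries of Nat8f6 reaches the 26-week range.

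Genes for the ribosome, which makes protein, and for the mitochondrial respiratory chain, which makes ATP, were lower at 35 weeks. Of 53 ribosomal protein genes listed, 47 were called lower and none higher, all 53 had a negative change, and the median was -0.31. Of 43 nuclear genes of oxidative phosphorylation, 30 were called lower and none higher, with a median of -0.24. Over all genes tested 4.68% were called lower. For 28 genes of each list the ages did not overlap and the values were lower at 35 weeks (3.49% of all genes). In the oxidative phosphorylation list 1 more gene did not overlap and was higher at 35 weeks (1.5% of all genes). Rpl24, a protein of the large subunit, had 126, 140.2, 138, 143 and 156 at 26 weeks and 103 over 106 to 109.7 at 35 weeks, with a change of -0.40 ± 0.06 (q = 0.000135). Rps29, of the small subunit, went from 141 ± 18.1 to 102 ± 11.1 (-0.46 ± 0.08, q = 0.000316), Rpl30 was at -0.42 ± 0.07 and Rps25 at -0.36 ± 0.06. The ages did not overlap for Rpl24 or Rps29. Ndufa4, a subunit of the respiratory chain, had 809, 837, 791, 863 and 953 at 26 weeks and 589.7 over 660.5 to 707 at 35 weeks (-0.38 ± 0.06, q = 0.000131). Ndufa13, of complex I, fell from 573 ± 42.4 to 430.4 ± 43.1 (-0.41 ± 0.06, q = 0.000131), Atp5k, of ATP synthase, from 137 ± 15.3 to 98.3 ± 7.81 (-0.47 ± 0.07, q = 0.000166), and Cox5b, of cytochrome c oxidase, from 384 ± 27.3 to 305 ± 14.1 (-0.33 ± 0.05, q = 0.00026). None of these 4 genes overlapped between ages. Ribosomal protein genes have many processed pseudogenes, so their reads may be shared with copies.

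The decrease reached across gene families that the lists sample, here taken by name after their values had been seen. Of 80 Rpl and Rps genes 70 were called lower, of 37 Nduf genes 31, of 14 Cox genes 11, of 17 Atp5 genes 12 and of 9 Uqcr genes and Cyc1 5. Over all genes 4.68% were lower. Among 78 mitochondrial ribosomal protein genes (Mrpl, Mrps) 29 were lower, among 37 proteasome genes (Psm) 12, and among 23 genes of mitochondrial protein import (Timm, Tomm) 10 were lower and 1 higher. After the centring by transcript length described below, lower calls numbered 15 of the Rpl and Rps genes, 9 of Nduf, 0 of Cox, 2 of Atp5, 2 of Uqcr and Cyc1, 7 of Mrpl and Mrps, 2 of Psm and 2 of Timm and Tomm. The 13 protein genes of mitochondrial DNA had 4 lower calls: mt-Nd3 (234 ± 27.2 to 178 ± 10.7; -0.39 ± 0.08, q = 0.00261), mt-Co2 (3151 ± 227 to 2511 ± 189; -0.33 ± 0.07, q = 0.00291), mt-Nd2 (-0.26, q = 0.0182) and mt-Co3 (-0.23, q = 0.0314). All 13 changes were negative with a median of -0.19, but 11 were with quantile normalization (1 called), 10 after centring by transcript length (0 called), and 6, with a median of 0.01, after centring by length and GC content. mt-Nd2 was not called without replicate 2 or 5 of 26 weeks or 5 of 35 weeks (q from 0.0506 to 0.0865), and mt-Co3 without any 1 of 6 libraries, replicates 2, 3 and 5 of 26 weeks and 3, 4 and 5 of 35 weeks (q from 0.0627 to 0.0956).

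**Figure D3:**
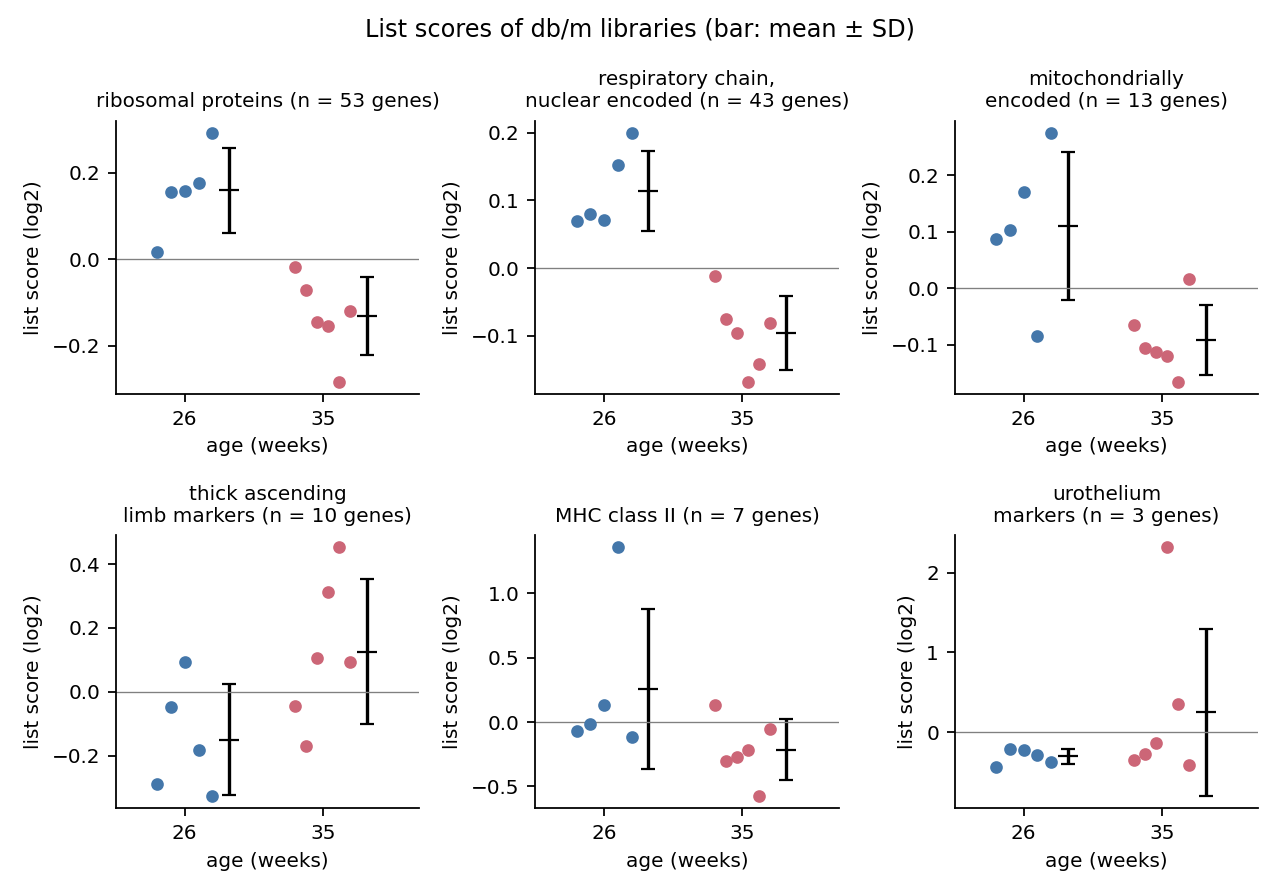
List score per db/m library (y axis, mean over members of log2(value + 1) minus that gene's mean) at 26 and 35 weeks (x axis) for 6 gene lists, with points for libraries and mean ± SD. Ribosomal protein scores run from 0.0157 to 0.291 at 26 weeks and from -0.283 to -0.018 at 35 weeks, while 1 library each stands apart in the MHC class II and urothelium panels.

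The decrease moved with the length of the transcripts. Ribosomal protein and respiratory chain mRNAs are short, with median lengths of 827 and 838 bases in the 2 lists, against 2643.5 bases over all genes. Genes were put into 5 equal bins by transcript length. In the shortest bin (123 to 1502 bases) the median change was -0.14, and in the following bins -0.01, 0.04, 0.09 and 0.09. Of 2698 genes in the shortest bin 476 (17.6%) were called lower and 6 higher, and in the longest bin 17 (0.63%) lower and 144 (5.34%) higher. Within the shortest bin, 145 of 187 genes of the ribosomal protein, mitochondrial ribosomal protein and respiratory chain families were lower (77.5%). Of the other 2511 genes 331 were lower (13.2%), and the median changes were -0.28 and -0.13. By GC content the medians of 5 such bins lay between 0.0013 and 0.0247. The shift was present in every library. The mean log2 level of the longest bin relative to the shortest, each gene set against its mean over the libraries, was -0.186 to -0.0682 at 26 weeks and -0.00387 to 0.218 at 35 weeks, with no overlap. With the ribosomal protein, mitochondrial ribosomal protein and respiratory chain families left out, it was -0.178 to -0.0697 and -0.00782 to 0.207. In db/db Unx it was -0.0882 to 0.0703 at 26 weeks and 0.0257 to 0.155 at 35 weeks, and the medians of the length bins ran from -0.09 to 0.06.

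**Figure D4:**
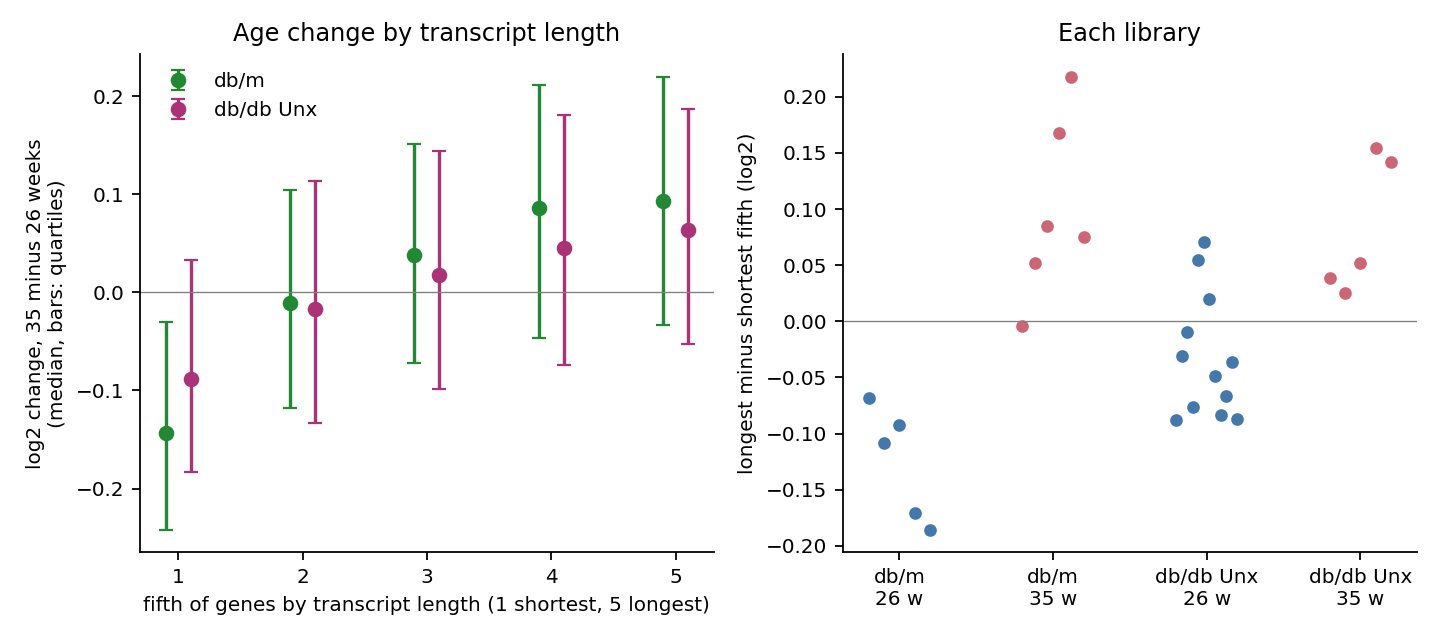
Left, median and quartiles of the log2 change from 26 to 35 weeks (y axis) in 5 equal bins of genes by transcript length (x axis) for db/m and db/db Unx; right, the longest minus the shortest bin in log2 units (y axis) for each library of the 4 groups. In db/m the medians rise from -0.14 in the shortest bin to 0.09 in the longest, and the 2 ages do not overlap in the right panel.

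When the median of each of 20 transcript-length bins was made equal in all libraries, an alternative added after these values had been seen, 332 genes were called, 119 higher and 213 lower, and 273 of them were among the 999. Of the ribosomal protein list 9 genes were then called lower, with a median of -0.11 and 51 negative changes. Of the oxidative phosphorylation list 5 were lower, with a median of -0.07 and 34 negative. Rps29 (-0.24, q = 0.0175), Ndufa4 (-0.16, q = 0.0172), Ndufa13 (-0.31, q = 0.000638) and Atp5k (-0.24, q = 0.01) kept their calls. Rpl24 (-0.17, q = 0.061) and Cox5b (-0.11, q = 0.127) did not. Of the 67 called genes named by rule, 41 kept their calls, among them Dbp, Ciart, Per3, Usp2, Arntl, Lepr, Ndrg1, Cyp2d12, Cdkn1a, Slc51a, Nat8f6, Col1a2 and Myl6. Slc16a1 (0.68, q = 0.0926) lost its call. So did Npas2 (1.18, q = 0.0659), which is not among the 67. Whether library preparation differed between the ages is not in the labels and was not tested.

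Markers of the nephron segments are given by list, beside 7.4% called over all genes (2.73% higher, 4.68% lower). Of 21 proximal tubule markers Slc6a18, a neutral amino acid carrier of the brush border, was called (0.25, q = 0.00983; not without replicate 5 of 26 weeks, q = 0.0505), the median change was 0.03, and the summed level was 34101 to 38289 at 26 weeks and 32502 to 37077 at 35 weeks. No endothelial marker of 14 and no principal cell marker of 11 was called, and lists this short can hold 0 calls at 7.4%. In bulk tissue, fewer cells of a type and less RNA per cell cannot be told apart. The thick ascending limb, which reabsorbs salt and makes uromodulin, had 3 of 10 markers called higher, and a list median of 0.25. Slc12a1, the furosemide-sensitive cotransporter NKCC2, had 227, 292, 321, 262 and 217 at 26 weeks and 286 over 391 to 669 at 35 weeks (0.67 ± 0.19, q = 0.0259), with overlap. Egf, secreted by this segment, had 721, 626, 717, 665 and 547, then 743 over 831 to 1023, without overlap (0.38 ± 0.11, q = 0.0359). Ptger3, a prostaglandin E2 receptor, was at 0.70 ± 0.21 (q = 0.0449), and Umod at 0.29 (q = 0.105). These calls were near the threshold. Slc12a1 lost its call without any 1 of replicates 1, 4 and 5 of 26 weeks and 4 and 5 of 35 weeks (q from 0.0517 to 0.0845), Egf without any 1 of replicates 2, 4 and 5 of 26 weeks and 4, 5 and 6 of 35 weeks (q from 0.0569 to 0.122), and Ptger3 without any 1 of replicates 1, 4 and 5 of 26 weeks and 3 to 6 of 35 weeks (q from 0.0565 to 0.132). None of the 10 was called after centring by length, where the list's median was 0.21 and all 10 changes were positive, against 8 positive before.

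In the distal and connecting tubule the calcium-handling genes S100g and Trpv5 moved in opposite directions. S100g, the calcium-binding protein calbindin-D9k, had 519, 527, 562, 490.1 and 721 at 26 weeks and 333 over 380.2 to 517 at 35 weeks (-0.51 ± 0.11, q = 0.00434). Trpv5, the apical calcium channel, had 3.51, 3.68, 1.66, 2.89 and 2.97, then 3.19 over 4.90 to 7.67 (0.62 ± 0.18, q = 0.0257). In both the ages overlapped at 1 end, and after centring by length neither was called (S100g -0.28, q = 0.158; Trpv5 0.59, q = 0.0684). Trpv5 was also not called without replicate 3 or 5 of 26 weeks or 1 or 3 of 35 weeks (q from 0.051 to 0.101). Of 12 intercalated cell markers Atp6v1g3, a proton pump subunit, was called (-0.35 ± 0.09, q = 0.0129). Of 15 podocyte markers Ptpro (0.75 ± 0.23, q = 0.0378) and Magi2 (0.47 ± 0.15, q = 0.048) were called higher, with a list median of 0.16. The shares over all genes were 2.73% higher and 4.68% lower. The 2 podocyte calls were lost after centring by length and without most single libraries, for Ptpro all but replicates 4 of 26 weeks and 1 and 2 of 35 weeks (q from 0.0579 to 0.0973) and for Magi2 all but replicates 1 of 26 weeks and 6 of 35 weeks (q from 0.0503 to 0.14).

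The contractile and renin-producing cells of small vessels had 2 higher calls among 13 markers, beside 2.73% called higher over all genes. The list median was 0.19, and the summed level was 182 to 222 at 26 weeks and 229.6 to 320.2 at 35 weeks. Ren1 (ENSMUSG00000070645, chromosome 1, 133350510 to 133360325), which encodes renin, had 49.6, 47.5, 37.7, 50.4 and 47.8 at 26 weeks and 57.8 over 72.6 to 141 at 35 weeks. The ages did not overlap, and the change was 0.74 ± 0.21 (q = 0.0295), not called without any 1 of replicates 2, 3 and 5 of 26 weeks or 2, 3 and 5 of 35 weeks (q from 0.052 to 0.0744). Acta2, smooth muscle actin, had 15.6, 11.8, 11.0, 20.4 and 11.2, then 15.9 over 24.6 to 26.1 (0.72 ± 0.16, q = 0.00428). Of the 11 genes of the renin-angiotensin system Agt, the substrate of renin, was also called (0.39 ± 0.12, q = 0.0386), but it was not without any 1 library other than replicates 1 and 3 of 26 weeks and 2 of 35 weeks (q from 0.0602 to 0.152). Matrix genes went the other way in part. Col1a2 (ENSMUSG00000029661, chromosome 6, 4504814 to 4541544), a chain of type I collagen, had 21.3, 24.6, 21.7, 23.4 and 26.3 at 26 weeks and 12.6 over 15.7 to 17.5 at 35 weeks, without overlap (-0.58 ± 0.12, q = 0.00262). In db/db Unx its change was 0.05. Bgn, the proteoglycan biglycan, was at -0.34 ± 0.09 (q = 0.0135; q = 0.119 without replicate 4 of both ages), and Tgfbi, a TGF-beta-induced matrix protein, at -0.47 ± 0.15 (q = 0.0427; not called without any 1 library other than replicates 4 of 26 weeks and 2 of 35 weeks, q from 0.0502 to 0.107). Col18a1 (0.26, q = 0.0476) was higher. So was Acta2, which the matrix list shares with the marker list above and which does not encode a matrix protein. Thus of the 35 genes in the matrix list 3 were called lower and 2, with Acta2, higher, beside 4.68% and 2.73% of all genes. The median change of the list was -0.04.

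The counts of the metabolism and stress lists stand beside 2.73% called higher and 4.68% lower over all genes. Of the 3 genes in the metallothionein list, Mt1 (-0.38 ± 0.11, q = 0.0367) and Mt2 (-0.46 ± 0.12, q = 0.0117), which bind zinc and copper, were lower. Neither was called after centring by length. Mt1 also lost its call without any 1 of replicates 2 to 5 of 26 weeks and 3 and 5 of 35 weeks (q from 0.0567 to 0.0949). In glycolysis Hk1 (0.43, q = 0.0249) and Pfkl (0.30, q = 0.013) were higher and Gapdh (-0.18, q = 0.0309) was lower, of 16 genes. All 3 lost their calls after centring by length, Hk1 also without any 1 of replicates 1, 4 and 5 of 26 weeks and 4 and 5 of 35 weeks (q from 0.0528 to 0.0752), and Gapdh without any 1 of replicates 1, 4 and 5 of 26 weeks and 3 to 6 of 35 weeks (q from 0.0502 to 0.108). Mcm7, a helicase subunit of DNA replication, was the called gene among 22 of the cell cycle (0.51 ± 0.12, q = 0.00688), Hspe1 among 19 heat shock genes (-0.33, q = 0.00447) and Fth1 among 15 NRF2 targets (-0.17, q = 0.0101). Hspe1 and Fth1 were not called after centring by length. No gene was called of 25 tubule injury genes, 20 of ER stress, 20 chemokine and NF-kB genes, 19 of complement, 18 of gluconeogenesis and sugar transport, 16 immediate early genes or 29 of drug transport and metabolism. None of 16 male-biased and 10 female-biased kidney genes was called with the shared spread. With 7.4% called over all genes, a count of 0 in a short list says little. Kap, the androgen-regulated proximal tubule protein, had 19528 ± 1473 at 26 weeks and 14649 ± 1492 at 35 weeks without overlap, and a change of -0.42 ± 0.31 (q = 0.482) in the fit whose spread is shared with the db/db Unx libraries. With the spread taken from the 11 db/m libraries alone, Kap (q = 0.00408) and Ugt2b38, a glucuronosyltransferase gene with a change of -0.23 (q = 0.0389), were called lower.

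No immune list held a called gene, beside 7.4% called over all genes. None was called of 37 interferon response genes (median change -0.30), 15 of MHC class I (-0.27), 7 of MHC class II (-0.48), 21 macrophage markers (-0.15) and 9 T and NK cell markers (-0.32). Replicate 4 of 26 weeks bears on these medians. Its Cd74, the class II invariant chain, was 1479, where the other 26-week libraries had 342 to 410.0 and the 35-week libraries 273 to 383, and its H2-Ab1 was 907, where the others of its age had 227 to 282. Its MHC class II score was 1.36, and the other 26-week libraries had -0.12 to 0.131. The erythroid list, which measures blood left in the tissue, had a median of -0.92 with 0 of 6 genes called, and Hba-a1, an alpha globin, had 329.8, 327, 124, 147 and 570.1 at 26 weeks and 68.4 to 247 at 35 weeks. Urothelial markers set 1 library apart. Replicate 4 of 35 weeks had a summed level of 21.1 for the 3 markers and 13.1 for Psca, where no other db/m library passed 1.05 for Psca. The same library had the highest principal cell score of the 11 (0.439), and its thick ascending limb score of 0.312 was next to that of replicate 5 of 35 weeks (0.452), the highest. Without it the calls of Slc12a1, Egf and Ptger3 were lost, as given above.

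The same interval was also sampled in db/db Unx mice, where 1526 genes were called (11.3%), 697 higher (5.16%) and 829 lower (6.14%). The 2 age comparisons share no libraries, although they share the fit's estimate of spread. Of the 999 db/m calls 61 were higher and 277 lower in both, 33.8% of the db/m calls and 22.1% of the db/db Unx calls, and 7 were called in opposite directions. The sign was the same for 903 of the 999, and this share was not counted over all genes. Both comparisons carried the shift with transcript length. From the shortest to the longest bin the medians ran from -0.14 to 0.09 in db/m and from -0.09 to 0.06 in db/db Unx. How much of the overlap goes with that shift was not tested. A direct test of the difference called 74 genes (0.548%), 21 with the more positive change in db/m (0.156%) and 53 with the more negative (0.393%), and 19 of these were also called in db/m. That count was 7 without replicate 5 and 249 without replicate 2 of the 35-week db/db Unx group. For ribosomal protein genes the db/db Unx median was -0.11 with 11 of 53 lower, and for oxidative phosphorylation -0.15 with 27 of 43 lower. For mitochondrially encoded genes it was -0.26 with 10 of 13 lower. No gene of these 3 lists differed between the genotypes by the test.

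Named genes with the more negative change in db/m include macrophage and matrix genes that rose in db/db Unx. By list, the test of the difference called 2 of 21 macrophage markers, 1 of 19 complement genes and 1 of 35 genes of the matrix list. Over all genes the share was 0.548%. C1qa, a complement subunit made by macrophages, had 15.5, 19.1, 16.6, 20.3 and 17.2 at 26 weeks and 9.07 over 12.4 to 16.5 at 35 weeks in db/m (-0.49, not called), and rose from 12.9 ± 3.09 (n = 12) to 26.2 ± 8.87 (n = 5) in db/db Unx (0.93). The difference was -1.42 ± 0.26 (q = 0.01). Tgfbi had 17.2, 17.2, 19.6, 15.7 and 19.3, then 11.4 over 11.9 to 15.4 in db/m, and rose in db/db Unx from 9.67 ± 1.53 to 16.9 ± 5.67 (0.70; difference -1.17 ± 0.19, q = 0.00711). Mgp, matrix Gla protein, changed by -0.47 in db/m against 0.56 in db/db Unx (difference -1.03 ± 0.18, q = 0.01), and Lgals3, galectin-3, at -0.24 and 0.42 (difference -0.66 ± 0.11, q = 0.00711). Tnfrsf12a, a receptor induced in injured tissue, was at -0.11 and 0.86 (difference -0.97 ± 0.18, q = 0.0183). The db/m call of Mgp (q = 0.0335) was lost after centring by length (q = 0.396) and without any 1 of replicates 3, 4 and 5 of 26 weeks and 4, 5 and 6 of 35 weeks (q from 0.0546 to 0.106), that of Tgfbi as given above, and the difference stayed called in all 28 such fits for both, for C1qa and for Lgals3. Slc4a1, the band 3 anion exchanger of red cells and of acid-secreting intercalated cells, had the largest difference among named genes. It had 15.3, 13.7, 13.8, 13.8 and 5.69 at 26 weeks and 11.9 over 16.0 to 25.2 at 35 weeks in db/m (0.47, not called), and fell in db/db Unx from 22.7 ± 4.17 to 9.52 ± 3.59 (-1.21), a difference of 1.68 ± 0.28 (q = 0.00711). Patz1, a zinc finger repressor, changed by 0.46 (q = 0.00317) in db/m against -0.26 in db/db Unx (difference 0.73 ± 0.13, q = 0.01), and Larp4b, an RNA-binding protein, at 0.38 (q = 0.00152) and -0.11 (difference 0.49 ± 0.10, q = 0.0238). The rise of Ndrg1 was 0.88 in db/m against 0.10 in db/db Unx (difference 0.78 ± 0.15, q = 0.0238). Ell3, an RNA polymerase II elongation factor, was at -0.08 and -0.83 (difference 0.74 ± 0.15, q = 0.0209), and Susd2, a membrane protein, at 0.04 and -0.40 (difference 0.45 ± 0.09, q = 0.0238). The differences of Ndrg1, Larp4b and Susd2 were not called without replicate 2 of db/m at 26 weeks (q = 0.0528), and those of Tnfrsf12a (q = 0.0519), Ell3, Larp4b and Susd2 (q = 0.058) without replicate 5 of db/db Unx at 35 weeks.

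**Figure D5:**
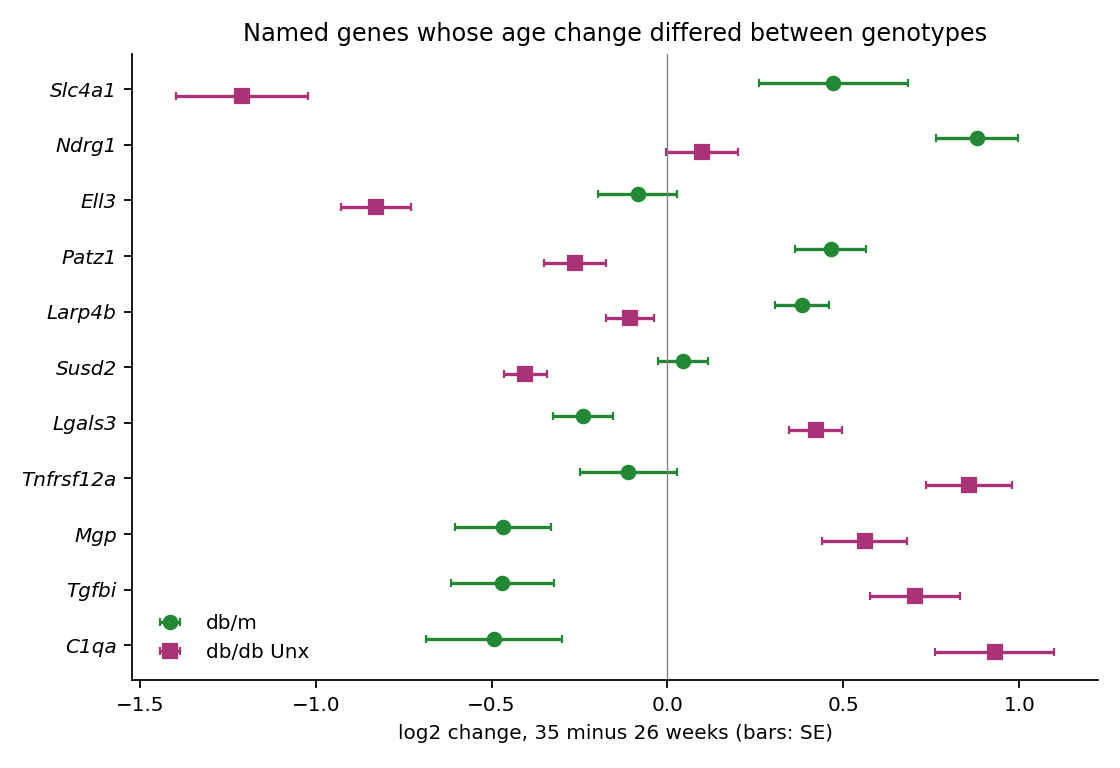
Log2 change from 26 to 35 weeks with its standard error (x axis) for 11 genes (y axis), drawn separately for db/m and db/db Unx, all called in the test of the difference. C1qa, Tgfbi and Mgp lie below 0 for db/m and above 0 for db/db Unx, and Slc4a1 and Patz1 the other way round.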

How the data were processed

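Total RNA of mouse kidney was sequenced in 28 libraries, of which 11 from db/m intact mice are described. Per the labels' protocols, TRIzol and the RNeasy kit gave the RNA and a Nextera XT kit, which does not mark strand, the libraries. Per the submitters' processing notes, DRAGEN was used with the mouse build GRCm38 (mm10). Each gene has, as deposited, 1 signal value in every library, already scaled by the authors. The DRAGEN version, annotation and scaling method were not given in the sources used here. In each db/m library 87.6% to 89.4% of values under 2 lay within 0.1 of a whole multiple of 1 step, which was read as 1 estimated count, and the column sums were 928392 to 1018934. Too few values were whole for a count model, and none was run. The table had 0 value columns of no sample and no row without a gene.

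Symbols came from GENCODE M21 (14834 identifiers matched, 11 did not), transcript lengths from its basic transcripts, and promoters from RefSeq (GRCm38.p6), where all 6 called clock genes had an entry. For 5 of these 6 the RefSeq start site was followed by GENCODE transcript sequence of the gene. Genes reaching 1 in 5 libraries were fitted as log2(value + 1) by limma 3.58.1 (R 4.3.3) as 1 mean for each of the 4 groups, a mean-variance trend and robust moderation. Tests were two-sided, and p-values were adjusted by Benjamini-Hochberg. The steps were tested on simulated data. Gene lists are described by counts and medians only, without a test of the list.

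Genes were named by rule: Lepr; per direction the 10 called genes with the largest change whose mean in the higher age reached 19.7, the median over genes; the 5 per direction with the smallest q; up to 4 called members per list, or the 2 most abundant where none was called; and the 5 per direction with the smallest q in the difference between genotypes. Predicted genes and immunoglobulin segments were left out, and clock genes were all described. Other genes in the text were chosen after their values were seen. The members and lists were chosen with earlier results of these data known. Alternatives were other pseudocounts, filters, scalings and limma settings, each library left out, db/m libraries alone, and the replicate number as a block. Centring by transcript length or GC content and leaving out replicate 4 of both ages were chosen after seeing the data.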

Additional observations from a re-analysis of the deposited data

Results flagged for a closer look

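In 248 groups of 5 or 6 db/m libraries, 1 for each named gene and age, 21 held a library far from the others of its group, and chance flags about 1 in 20 groups. Of the 21, 6 fell on replicate 4 of 26 weeks. There H2-Ab1 was 907 (nearest library 282), Cd74 1480 (410), B2m 680 (300), H2-D1 1120 (641), Irgm1 149 (90.4) and Ptpro 5.66 (3.20). The first 5 of these serve antigen presentation or the interferon response, and Ptpro is a podocyte gene.

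At 26 weeks, replicate 3 was also lowest in Nat8f7 (20.4, nearest 25.1), Fasn (26.0, nearest 33.9) and Ren1 (37.7, nearest 47.5). Replicate 1 was highest in Susd2 (365, nearest 321) and Cfb (582, nearest 510). Replicate 5 was lowest in Slc4a1 (5.69, nearest 13.7).

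At 35 weeks, replicate 5 was lowest in Dbp (15.0, nearest 42.6) and Rps25 (123, nearest 139). Replicate 4 was highest in Psca (13.1, nearest 1.05) and Ifi27 (52.1, nearest 38.4). Replicate 2 was lowest in Spp1 (675, nearest 812) and Acta2 (15.9, nearest 23.5). S100g in replicate 1 (517, nearest 392), Ipmk in replicate 3 (120, nearest 101) and Nkg7 in replicate 6 (3.11, nearest 1.54) were each highest.

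The age change differed between db/m and db/db Unx, by limma's test of the difference, for 11 named genes. It was more negative in db/m for C1qa (-1.42), Tgfbi (-1.17), Mgp (-1.03), Tnfrsf12a (-0.97) and Lgals3 (-0.66), on the log2 scale. It was more positive in db/m for Slc4a1 (1.68), Ndrg1 (0.78), Ell3 (0.74), Patz1 (0.73), Larp4b (0.49) and Susd2 (0.45).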

How the results depend on the processing

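The 999 db/m calls were 578 (without replicate 5 of 26 weeks) to 1140 (without replicate 1 of 35 weeks) with single libraries left out, 475 without replicate 4 of both ages, 332 with length-bin centring and 291 with length and GC centring. The fits without replicate 4 of both ages and with centring were added after seeing the data. Apart from leaving out replicate 5 of 26 weeks and the replicate block given below, the planned settings gave counts within 1.5 times of 999. Replicate numbers do not pair the libraries: correlations of deviations between same-numbered libraries were -0.192 to 0.0175. With the number as a replicate block, 52 genes were called over the 10 libraries numbered alike, against 591 without the block, with 1 ribosomal protein, 1 oxidative phosphorylation, 2 mitochondrially encoded and 0 clock genes (3 clock genes without the block). The ribosomal protein genes lower numbered 9 with length-bin centring and 7 with both centrings, and oxidative phosphorylation genes 5 and 5. The 4 mitochondrially encoded calls were 1 with quantile normalization, 2 without trend and robust moderation, 2 to 6 without single libraries, and 0 and 0 with the centrings, where mt-Co3 reversed to 0.0599 (q = 0.579) under both together. The 1526 db/db Unx calls were 633 (without replicate 5 of 35 weeks) to 1748 with single libraries left out, 759 without replicate 6, and 2185 with array weights. The 74 differences were 41 without trend and robust moderation, 178 with array weights, 20 without replicate 4 of both ages, and 7 to 249 without single libraries. The cause was not tested, except that fewer libraries enter when some are left out. Of all values of named genes under alternatives 3334 kept their side of the threshold, 300 lost and 18 gained a call, and 1 reversed. Low-valued genes such as Lepr, Arntl and Npas2 rest on few counts.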

Other observations

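Several lists not described above are given here for db/m, beside 7.4% called over all genes (2.73% higher, 4.68% lower). None of 4 cold-inducible RNA-binding genes, 6 B and plasma cell, 3 neutrophil, 4 adipocyte, 2 adrenal, 4 lymphatic vessel and 1 skeletal muscle markers was called by limma. Of 12 glucocorticoid targets the calls were Mt1 and Mt2, both lower. Of 20 genes of phosphate, calcium and vitamin D handling they were Trpv5, higher, and S100g, lower. Of 16 insulin, IGF and growth factor genes it was Egf, and of 10 genes around the leptin receptor it was Lepr, both higher. In db/db Unx 9 of 16 immediate early genes, 14 of 20 chemokine and NF-kB genes and 12 of 25 tubule injury genes were called higher at 35 weeks, and in db/m 0 of each, beside 5.16% and 2.73% of all genes. Of these lists 1, 4 and 4 genes were called in the test of the difference, beside 0.548% of all genes.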
